A study of Mus musculus with 8 samples.

Results

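Alveolar macrophages grown outside the body were compared with the alveolar macrophages that live in the lungs of recipient mice, over all genes of a bulk RNA sequencing count table. The comparison used 4 of the 8 libraries of the series, 2 of cultured cells (exAM) and 2 of host cells (HostAM), taken by their labels and not by any measured value. The exAM libraries were made from cells of 8 weeks old wild-type C57BL/6 mice that had been expanded in culture for 2 months and were not sorted. The HostAM libraries came from C57Bl/6-Ly5.1 mice, which carry the CD45.1 allele of CD45, and were sorted from whole lung as live SiglecF+ CD11c+ CD45.1+ cells. Each library held a pool of 3 mice or 3 cultures. The labels do not say whether the donors of HostAM were instilled with cells or with PBS, nor how old they were at harvest. Culture, strain and sorting all separated exAM from HostAM, so their shares in a difference cannot be told apart in these 4 libraries. Sex-linked genes differed as well, with 4 of 5 tested higher and 1 lower in exAM, so sex cannot be told apart from these factors either. Transplanted cells that were never cultured (tAM, 2 libraries) have the strain of exAM and were sorted from lung like HostAM, as CD45.2+ cells 4 months after transfer, and their values are given beside the main ones. The tAM and HostAM comparisons share the exAM libraries, so they are not independent. The remaining 2 libraries, from expanded cells after 4 months in a lung (texAM), entered the statistical model, the principal components and the plots of levels by library only. P-values measure the spread between pools of one group. The alveolar macrophage markers Siglecf, Itgax, Marco, Pparg, Car4, Chil3, Ear1, Ear2 and Mrc1, all 9 tested, were counted in both exAM libraries, at 19.9 CPM or more.

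Alveolar macrophages are the resident phagocytes of the airspaces. They take up and break down surfactant lipid and protein, clear inhaled particles and microbes, and renew themselves locally rather than from blood monocytes. Their identity depends on GM-CSF from the lung epithelium, on TGF-beta and on the nuclear receptor PPAR-gamma, and they are known for weak antigen presentation and for a metabolism that rests on fatty acid oxidation rather than on glycolysis.

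The 4 libraries held 6546272 to 8898362 counts and 16492 to 17845 genes with a count. Levels are CPM, read counts relative to the library size after edgeR's TMM scaling, and the given pairs of values are replicate 1 and replicate 2. A gene was called when the edgeR quasi-likelihood test gave a Benjamini-Hochberg adjusted p under 0.05 over 14537 tested genes, and log2 differences are exAM minus HostAM with their standard error (SE). On the first principal component, which held 66.8% of the variance, both exAM libraries lay far from the 6 lung libraries. Between replicates 9.16% of genes differed by more than 2-fold in exAM and 15.35% in HostAM. No gene exceeded 1.94 counts per base of its longest transcript, and genes with many counts for their length leaned upward in exAM: of the 1530 over 0.5 counts per base, 45.2% were called higher, 22.9% lower, and their median log2 difference was 0.24. The part of this density in the results was not tested, and counts of members at or under 0.5 counts per base are given beside several lists. The 10 genes with the most counts held 1.52% to 1.67% of the counts of each of the 4 libraries. Whether a ceiling on counts per base narrowed the differences of genes with many counts was not tested.

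Cultured cells differed from host cells in 6417 genes, 44.1% of those tested. Of these, 3034 (20.9%) were higher in exAM and 3383 (23.3%) were lower, and the median log2 difference over all tested genes was -0.08. These shares of all tested genes are the background for the member counts of each list below. Changes of at least 2-fold were found in 1357 genes upward and 2383 downward, 25.7% of those tested. Scaled by library size alone, 2275 genes were higher and 4189 lower (35.2% of the called genes higher, against 47.3%), and the median of all genes moved by -0.18. Against tAM, exAM were higher in 3124 genes (21.5%) and lower in 3378 (23.2%), 44.7% in all. The libraries of exAM and HostAM did not overlap in 73.7% of the tested genes, and they did not overlap in any gene named below unless that is stated.

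**Figure D1:**
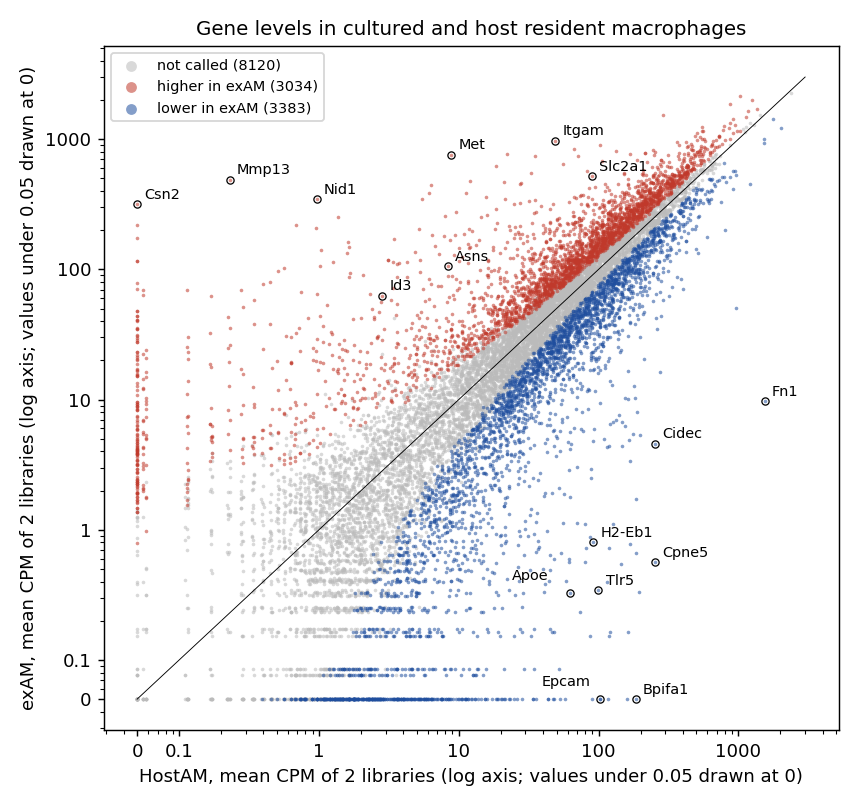
Mean level of each tested gene in HostAM (horizontal) and exAM (vertical), as the mean CPM of 2 libraries on log axes with values under 0.05 drawn at 0, called genes coloured by direction and some genes circled. Csn2 lies on the vertical axis, at 0 in HostAM, and Bpifa1 and Epcam lie on the horizontal axis, at 0 in exAM.

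The genes that separated the groups most were nearly silent in one of them. Csn2, a milk casein (ENSMUSG00000063157, GRCm38 chromosome 5, 87692624 to 87699630), was measured at 327 and 308 CPM in the exAM libraries and at 0 counts in both HostAM libraries, at least 1880-fold higher. That bound sets the 0 counts to 3 counts over the group, and like every counting interval below it covers counting error only. The adhesion protein Flrt2 at 226 and 210 CPM, the fibrillar collagen Col24a1 at 145 and 204 CPM and Bex1 at 102 and 128 CPM also had 0 counts in HostAM, which makes them at least 1290-fold, 1040-fold and 685-fold higher. No count in HostAM was likewise found for the neuropeptide Npy (86.4 and 70.3 CPM), the hyaluronan receptor Layn (60.5 and 35.5 CPM), the mitochondrial adenylate kinase Ak4 (35 and 53.4 CPM), the neuronal adhesion molecule Nrcam (10.3 and 77.4 CPM) and the muscle synapse adaptor Dok7 (42 and 39.4 CPM). The serpin Serpinb9b (158 and 73.3 CPM), Fam135b (60 and 81.8 CPM), the homeobox factor Pknox2 (39.4 and 56.7 CPM), the neural adhesion molecule Opcml (42 and 38.8 CPM) and the ubiquitin conjugase Ube2e2 (35.8 and 34 CPM) had no HostAM count either. Of the genes higher in exAM, 127 had 0 counts in HostAM and 41 of those reached 10 CPM. The ion channel Trpc4 (46.6 and 24.6 CPM against 0 counts) was called by edgeR but not by the DESeq2 Wald test (adjusted p = 0.0542).

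Among genes above 200 CPM in exAM, the collagenase Mmp13, the basement membrane protein Nid1 and the hepatocyte growth factor receptor Met stood out. Mmp13 (chromosome 9, 7272514 to 7283331) was at 623 and 356 CPM in exAM and 0 and 0.46 CPM in HostAM, 2030-fold higher, or 1030-fold without HostAM replicate 1 (log2 difference 10.99 ± 0.51, edgeR adjusted p = 2.3e-07). Nid1 stood at 316 and 375 CPM against 0.661 and 1.27 CPM, 355-fold higher. Met was at 903 and 618 CPM against 7.83 and 9.78 CPM, 86.3-fold higher. Without HostAM replicate 2, the library that held its only HostAM counts, Mmp13 had none left in HostAM. The desmosomal protein Pkp2 (227 and 213 CPM), the prostaglandin transporter Slco2a1 (329 and 174 CPM), the bHLH-PAS factor Arnt2 (213-fold) and the myosins Myo1d (70.2-fold) and Myo10 (351 and 338 CPM) completed the strongly expressed set. All of these stood below 10 CPM in both HostAM libraries.

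The 15 largest falls in genes of at least 10 CPM in HostAM, which had 0 counts in both cultures, included genes of airway epithelium. In bulk libraries fewer cells of a type and less RNA per cell cannot be told apart. The secreted airway proteins Bpifa1 (178 and 190 CPM in HostAM) and Bpifb1 (76.3 and 127 CPM), the club cell cytochrome Cyp2f2 (156 and 162 CPM) and the antimicrobial lectin Reg3g (37.9 and 68.6 CPM) had 0 counts in both exAM libraries, at least 755-fold, 416-fold, 652-fold and 217-fold lower. Others of these were Ccr7, the cathepsin Ctse, Epcam and the haemoglobin genes Hbb-bt and Hbb-b1, described below, the retinaldehyde dehydrogenase Aldh1a1 (25.4 and 42.6 CPM), the adenylate cyclase Adcy6 (22.9 and 34.1 CPM), the tubulin-binding Tppp (35.3 and 35.7 CPM) and Sec14l3 (18.3 and 50.2 CPM). The goblet cell gene Clca1 differed between the HostAM pools, at 30.5 and 201 CPM. In tAM Cyp2f2 stood at 82.8 and 39.7 CPM and Clca1 at 3.13 and 1 CPM, and neither was called between tAM and HostAM. Other large falls were in genes above 200 CPM in HostAM. Fn1, which encodes fibronectin, fell from 1520 and 1560 CPM to 16.3 and 3.09 CPM, 162-fold lower, with a wide spread between the exAM libraries (491-fold without exAM replicate 1 and 93.7-fold without exAM replicate 2). The membrane-binding copine Cpne5 fell 435-fold, from 295 and 213 CPM to 0.515 and 0.618 CPM. The nuclear envelope protein Syne2 fell 19.2-fold, from 983 and 941 CPM to 51.5 and 48.8 CPM. The leptin receptor Lepr (10.2-fold), the interleukin-6 receptor Il6ra (7.56-fold), the transcription factor Nfix (6.12-fold), the glutamine transporter Slc38a1 (5.74-fold) and Pbxip1 (6.37-fold) fell as well.

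**Figure D2:**
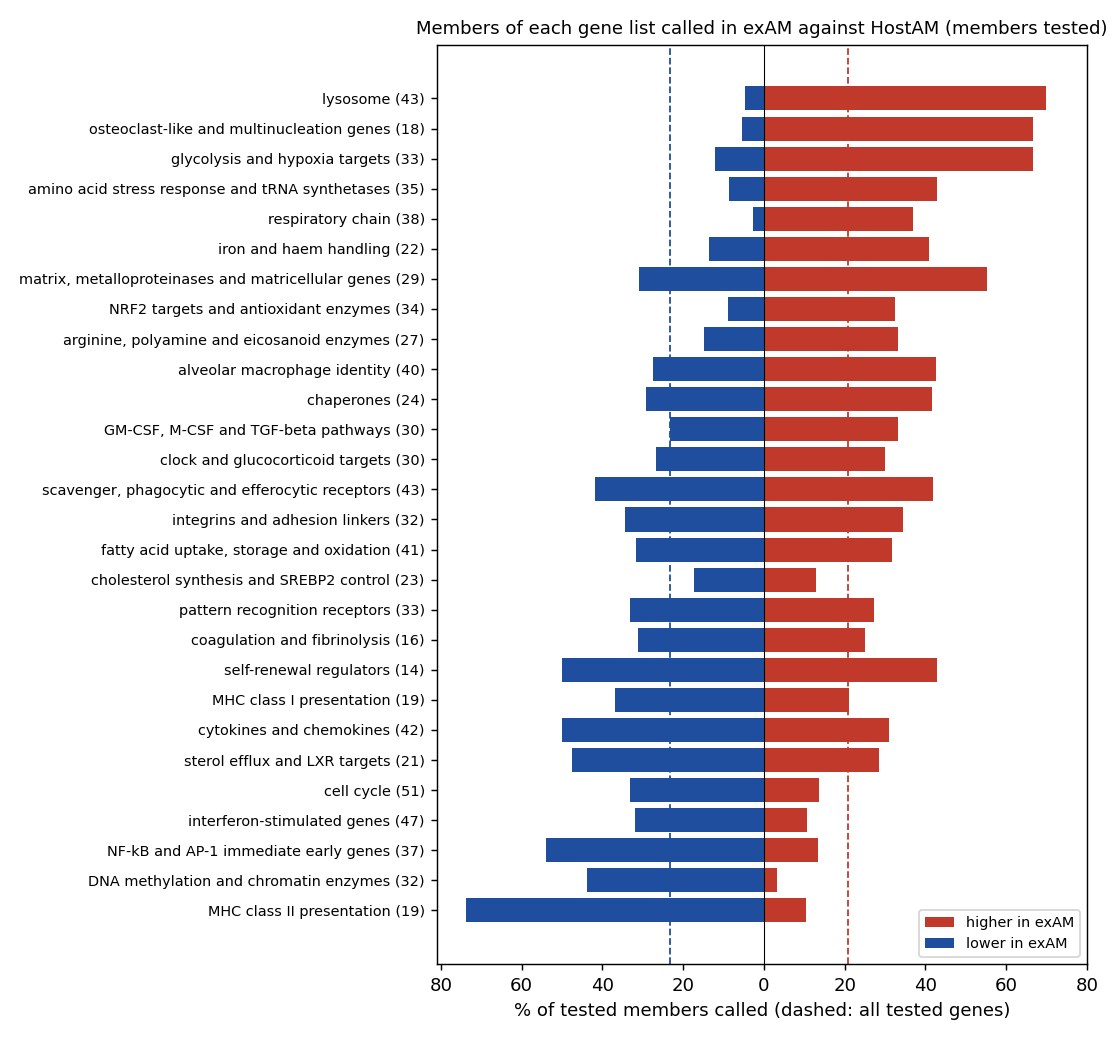
Share of the tested members of each gene list that were called higher (right) and lower (left) in exAM, with the share over all tested genes dashed. Glycolysis and hypoxia, lysosome and osteoclast-like lists have their longest bars to the right, and the MHC class II list to the left.

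MHC class II molecules display peptides to CD4 T cells, and Ciita is the coactivator that their promoters need. Of 19 tested genes of class II presentation and co-stimulation, 14 (73.7%) were lower in exAM, where 23.3% of all tested genes were, and 2 were higher (1 without exAM replicate 1 or HostAM replicate 1), with a median log2 difference of -2.83. The promoters of the class II genes share a short block of elements that ends in a Y box. The windows below hold the 150 bases before the annotated start, read 5′ to 3′ on the gene's strand (RefSeq, GRCm38.p6), with the Y box core GATTGG, or its reverse complement CCAATC, in capitals. They are shown because these 4 genes all fell.
H2-Eb1 (chr17:34305717-34305866, + strand): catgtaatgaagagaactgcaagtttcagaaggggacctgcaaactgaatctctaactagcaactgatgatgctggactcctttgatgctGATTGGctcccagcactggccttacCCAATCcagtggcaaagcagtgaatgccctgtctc
H2-Aa (chr17:34287824-34287973, - strand): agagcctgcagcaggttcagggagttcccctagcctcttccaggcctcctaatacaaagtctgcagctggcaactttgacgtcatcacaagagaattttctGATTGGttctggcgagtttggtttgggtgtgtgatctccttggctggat
H2-Ob (chr17:34238755-34238904, + strand): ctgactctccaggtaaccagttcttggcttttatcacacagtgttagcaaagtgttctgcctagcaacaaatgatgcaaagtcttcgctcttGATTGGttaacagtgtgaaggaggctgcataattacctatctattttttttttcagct
H2-DMb2 (chr17:34145099-34145248, + strand): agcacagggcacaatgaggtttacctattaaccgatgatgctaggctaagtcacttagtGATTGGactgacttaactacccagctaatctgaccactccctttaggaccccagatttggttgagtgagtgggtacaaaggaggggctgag
Over 250 bases before the start, on both strands, the Y box core was found in 8 of 11 windows of members that fell (72.7%), in 66.7% of the windows of all tested members, and in 14.6% of all 32851 promoter windows of 27025 genes. A match is a description of these letters, not a binding site or a cause. H2-Ab1 was not matched in this table.

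H2-Eb1, the beta chain of the I-E molecule, was at 0.686 and 0.926 CPM in exAM and 81.6 and 101 CPM in HostAM, 110-fold lower (log2 difference -6.79 ± 0.26, edgeR adjusted p = 9.24e-08). The I-A chains H2-Aa and H2-Ab1 stood at 3.43 and 7.26 CPM and 8.58 and 7.41 CPM in exAM against 175 and 220 CPM and 167 and 208 CPM, 23.4-fold lower for H2-Ab1. Ciita was at 1.37 and 3.09 CPM against 25.1 and 27.5 CPM, 11.6-fold lower (18.8-fold without exAM replicate 2). Regulator and chains all fell, and both exAM libraries were far below both HostAM libraries. Of the peptide loading genes, H2-DMa and H2-DMb2 fell 3.58-fold and 10.5-fold, and another was not called. Their modulator H2-Oa fell 8.67-fold. H2-Ob, its partner chain, had 0 counts in exAM and 1.76 and 5.64 CPM in HostAM.

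Several co-stimulatory ligands fell, and one checkpoint ligand rose. Cd86 was at 2.06 and 5.71 CPM against 21.2 and 35.1 CPM and Cd80 at 18.2 and 12.2 CPM against 33.6 and 39 CPM. Icosl fell from 120 and 89.9 CPM to 22 and 31.8 CPM, and Pdcd1lg2, which encodes PD-L2, fell 9.64-fold. Cd274, which encodes PD-L1, rose instead, from 446 and 466 CPM to 820 and 849 CPM, 1.83-fold. The protease Ctss, which trims the invariant chain, stood at 376 and 315 CPM against 264 and 282 CPM, a rise that was not called when libraries were scaled by size alone, in the fit of the 4 libraries, or without exAM replicate 1 or HostAM replicate 1 (adjusted p = 0.226, 0.0788, 0.16 and 0.108). Against tAM, 14 members of the list were lower and 1 higher in exAM, with H2-Eb1 at 162 and 186 CPM and Ciita at 68.1 and 88.5 CPM in tAM. Dendritic cell markers, which mark cells rich in class II, moved with this list: 12 of 19 were lower in exAM and 2 higher (1 without HostAM replicate 1 or 2), with a fitted median of -2.64 (-4.23 without exAM replicate 1 and -3.97 without HostAM replicate 1), or -2.41 when members at 0 counts are set to their bound, and Flt3, a growth factor receptor of the lineage, had 0 counts in exAM and 8.6 and 29.8 CPM in HostAM. The summed level of that marker list was 1410 to 1470 CPM in exAM and 1420 to 1600 CPM in HostAM. What part they had in the lower class II levels was not tested.

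**Figure D3:**
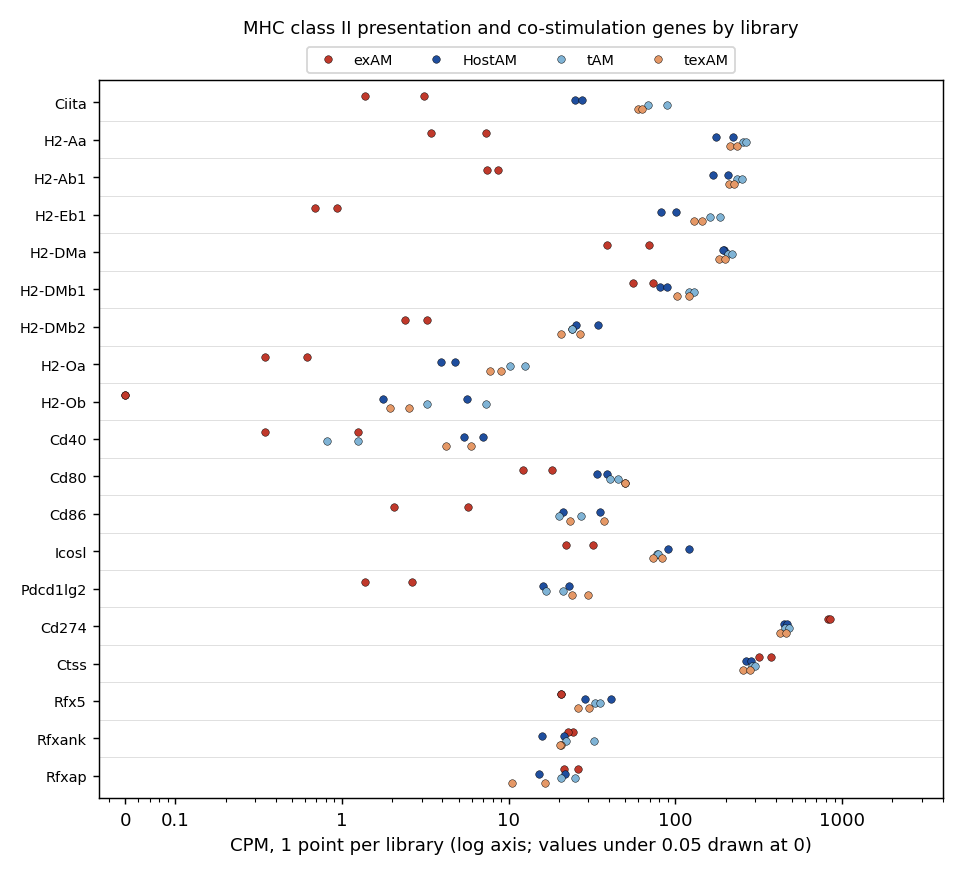
Level of 19 genes of class II presentation and co-stimulation (rows), in CPM on a log axis (horizontal), with 1 point per library of exAM, HostAM, tAM and texAM. The exAM points lie left of the HostAM points for the chains, Ciita, H2-DMa and H2-DMb2, and right of them for Cd274.

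Class I presentation, which serves CD8 T cells, did not move in one direction. Of 19 tested members 7 (36.8%) fell and 4 (21.1%) rose, where 23.3% and 20.9% of all tested genes did. The median was -0.20 (-0.06 without exAM replicate 2). The class I coactivator Nlrc5 fell from 16 and 34.5 CPM to 4.63 and 8.18 CPM. The peptide transporter genes Tap1 and Tap2 fell, Tap1 2.8-fold and Tap2 from 30.3 and 27.9 CPM to 3.6 and 8.65 CPM, and the immunoproteasome subunits Psmb8 and Psmb10 fell 1.53-fold and 2.06-fold. The light chain B2m rose from 174 and 183 CPM to 271 and 245 CPM, together with the chaperones Calr, Canx and Pdia3, by 1.35-fold to 1.44-fold. These 4 risers were all over 0.5 counts per base, the range in which genes leaned upward. None of the 9 members at or under that density rose and 6 fell.

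Glycolysis turns glucose into lactate and yields ATP without oxygen, and many of its genes are induced by the hypoxia factor HIF-1. Of 33 tested genes of glycolysis and of the hypoxia response, 22 (66.7%) were higher in exAM, against 20.9% of all tested genes, and 4 were lower (2 without exAM replicate 1 or 2 or HostAM replicate 2), with a median log2 difference of 1.07. HIF-1 binds a core of 5 bases, ACGTG, which is in capitals, on either strand, in the 150 bases before the start of these genes, chosen as a transporter, a first and a later step of glycolysis, and a hypoxia marker.
Slc2a1 (chr4:119108595-119108744, + strand): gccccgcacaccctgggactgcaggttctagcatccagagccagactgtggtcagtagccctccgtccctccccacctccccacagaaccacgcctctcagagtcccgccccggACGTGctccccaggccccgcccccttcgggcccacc
Hk2 (chr6:82774455-82774604, - strand): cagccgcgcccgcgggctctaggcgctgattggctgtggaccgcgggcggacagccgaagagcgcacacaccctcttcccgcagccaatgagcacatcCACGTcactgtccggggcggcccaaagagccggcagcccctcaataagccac
Pgk1 (chrX:106186950-106187099, + strand): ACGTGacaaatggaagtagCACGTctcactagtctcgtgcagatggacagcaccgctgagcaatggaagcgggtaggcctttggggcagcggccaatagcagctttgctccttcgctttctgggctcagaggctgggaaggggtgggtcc
Ankrd37 (chr8:45999851-46000000, - strand): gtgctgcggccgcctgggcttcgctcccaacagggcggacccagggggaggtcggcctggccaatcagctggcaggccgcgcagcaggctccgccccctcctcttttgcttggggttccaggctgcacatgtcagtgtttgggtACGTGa
Over 250 bases ACGTG or its reverse complement CACGT was found in 14 of 29 windows of members that rose (48.3%), in 48.9% of the windows of all tested members, and in 16.6% of all promoter windows. The longer motif TCACGTGA, used below for lysosomal genes, contains this core.

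The glucose transporter Slc2a1 (GLUT1) was at 535 and 503 CPM in exAM and 87.8 and 92.3 CPM in HostAM, 5.76-fold higher (log2 difference 2.53 ± 0.17, edgeR adjusted p = 2.23e-06). The hexokinases Hk1, Hk2 and Hk3, which trap glucose in the cell, all rose, Hk1 2.38-fold, Hk2 3.14-fold from 90.9 and 91.9 CPM to 260 and 314 CPM, and Hk3 from 77.4 and 38 CPM to 137 and 113 CPM. Of the later enzymes, Pgk1 rose from 35.5 and 29.5 CPM to 124 and 111 CPM and Pgam1 from 19.1 and 15.2 CPM to 64 and 61.6 CPM. Genes of transport, entry and these late steps thus rose. Ldha, which makes lactate, rose 1.72-fold, and Pdk1, which closes the way from pyruvate to mitochondria, 2.52-fold. Gapdh, Eno1, Ldha, Pgk1, Pgam1 and Tpi1 have processed copies elsewhere in the genome, so their counts are uncertain. The called falls included the phosphofructokinase Pfkp, from 259 and 297 CPM to 151 and 172 CPM, and Pfkfb4, which sets the level of its activator, from 197 and 166 CPM to 38.9 and 37.5 CPM. Gapdh stood at 17.2 and 20.2 CPM against 30.8 and 31 CPM, and its call was lost without any 1 of the 4 libraries (adjusted p = 0.0569 to 0.148).

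Genes of the hypoxia response were among those that rose. The factor itself, Hif1a, rose from 98.9 and 135 CPM to 196 and 220 CPM, and the collagen hydroxylase P4ha1 3.39-fold. Vegfa, the angiogenic growth factor, was at 36.5 and 21.6 CPM against 5.18 and 4.37 CPM, 6.06-fold higher. The oxygen sensor Egln1 rose 1.72-fold, and its relative Egln3, with 0 counts in HostAM, stood at 7.89 and 55.1 CPM, a large gap between the cultures. Ankrd37 was at 8.92 and 13.4 CPM against 0.772 and 1.96 CPM and Adm, the peptide adrenomedullin, at 3.43 and 6.95 CPM against 0 counts. Both lost their call without exAM replicate 2 (adjusted p = 0.0562 and 0.0503). Against tAM, 22 members were higher and 4 lower in exAM, with Slc2a1 at 61.9 and 93.5 CPM and Hk2 at 80.6 and 96.7 CPM in tAM. Of the 24 members at or under 0.5 counts per base, 15 rose and 3 fell, with a median of 1.35.

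**Figure D4:**
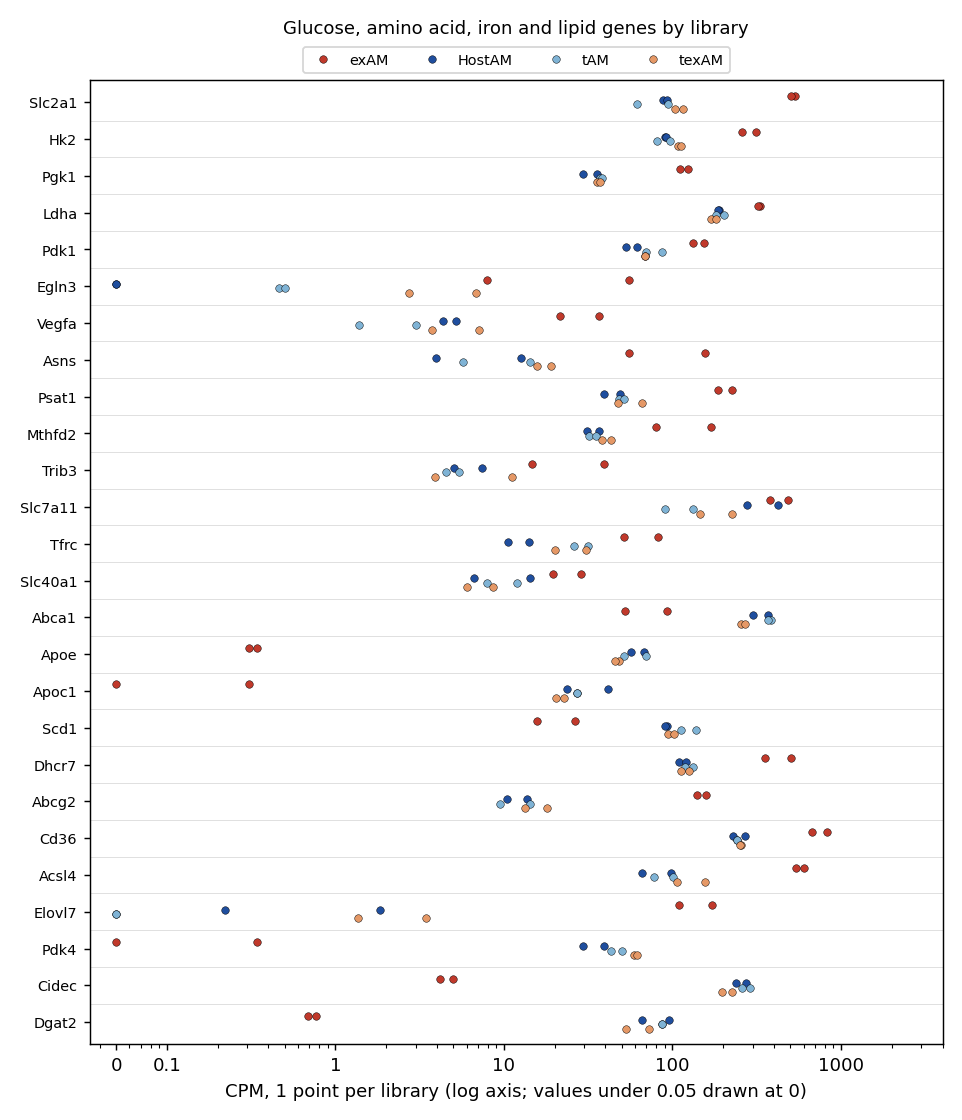
Level of 26 genes of glucose, amino acid, iron and lipid metabolism (rows), in CPM on a log axis (horizontal), with 1 point per library of exAM, HostAM, tAM and texAM. The exAM points of Slc2a1, Pgk1 and Asns lie right of the 3 lung groups, and those of Apoe, Abca1 and Dgat2 lie left of them.

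Genes of mitochondrial respiration were more often higher than lower (36.8% against 2.63% of those tested, where 20.9% and 23.3% of all tested genes were). Of 38 tested nuclear genes of the respiratory chain, 14 were higher in exAM and 1 was lower (none without exAM replicate 1 or 2 or HostAM replicate 1), and the median was 0.35. The complex III subunits Uqcrb (3.28-fold) and Uqcrfs1 (1.99-fold) rose most, Uqcrfs1 from 52.1 and 39.3 CPM to 92.4 and 89.7 CPM. Cox5a and Cox7b of complex IV rose 1.66-fold and 1.62-fold, and Sdhd of complex II 1.56-fold. Scaled by library size alone, 9 members were higher, and of the 18 at or under 0.5 counts per base 5 rose and none fell.

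Lysosomes break down the surfactant and debris that alveolar macrophages take in, and the factor TFEB drives many of their genes. Of 43 tested lysosomal genes 30 (69.8%) were higher in exAM and 2 lower (1 without exAM replicate 1 or 2 or HostAM replicate 1), with a median of 0.52. TFEB family factors bind the CLEAR element, whose core TCACGTGA is in capitals in the 150 bases before the start of a proton pump subunit and of a protease that rose.
Atp6v1a (chr16:44139260-44139409, - strand): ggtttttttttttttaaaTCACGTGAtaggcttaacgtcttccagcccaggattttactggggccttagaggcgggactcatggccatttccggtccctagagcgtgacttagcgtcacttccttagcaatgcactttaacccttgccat
Ctsd (chr7:142387828-142387977, - strand): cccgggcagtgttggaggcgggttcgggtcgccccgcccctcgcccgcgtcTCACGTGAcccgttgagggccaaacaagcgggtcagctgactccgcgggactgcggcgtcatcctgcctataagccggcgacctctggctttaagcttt
In 250 bases the 8 letters were found in 4 of 24 windows of members that rose (16.7%), in 12.5% of the windows of all tested members, and in 0.785% of all promoter windows. Atp6v1a, which drives the proton pump, rose from 257 and 304 CPM to 650 and 585 CPM, 2.2-fold. Atp6v0a1 and Atp6v1h of the same pump rose 2.49-fold and 2.41-fold. The proteases Ctsb, Ctsl and Lgmn rose 2.21-fold, 2.01-fold and 2.59-fold, the galactosidase Gla 2.6-fold and the membrane protein Lamp2 2.02-fold. Tfeb itself fell, from 144 and 95.3 CPM to 47.7 and 46.2 CPM. Against tAM, 31 members were higher and 2 lower. Here 28 of the members were over 0.5 counts per base, and of the 15 others 6 rose and 1 fell, with a median of 0.30. The lysosomal lipase Lipa rose 1.49-fold.

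Cells short of amino acids translate ATF4, which induces genes for amino acid synthesis, uptake and tRNA charging. In exAM 15 of 35 tested genes of this response were higher and 3 lower (1 without exAM replicate 1 or HostAM replicate 1), with a median of 0.47 (0.13 without exAM replicate 2). Its element TGATGNAA, in capitals on either strand, precedes the start of a synthesis gene and a tRNA synthetase that rose.
Asns (chr6:7693210-7693359, - strand): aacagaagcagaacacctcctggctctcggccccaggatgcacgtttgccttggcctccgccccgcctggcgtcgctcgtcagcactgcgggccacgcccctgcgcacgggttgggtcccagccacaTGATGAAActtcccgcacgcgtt
Aars (chr8:111033692-111033841, + strand): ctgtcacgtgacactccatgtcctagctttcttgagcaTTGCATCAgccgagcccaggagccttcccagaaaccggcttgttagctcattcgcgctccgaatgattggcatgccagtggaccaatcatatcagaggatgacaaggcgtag
It was found in 5 of 17 windows of members that rose (29.4%), in 24.1% of those of all tested members, and in 3.45% of all promoter windows of 250 bases. Asns, which makes asparagine, was at 54.9 and 157 CPM against 3.97 and 12.7 CPM, 12.8-fold higher, or 6.68-fold without exAM replicate 2, 8.4-fold without HostAM replicate 1 and 26.9-fold without HostAM replicate 2. Psat1, of serine synthesis, was at 185 and 225 CPM against 39 and 48.7 CPM and Mthfd2, of mitochondrial one-carbon metabolism, at 79.7 and 170 CPM against 31.2 and 36.5 CPM. In both Asns and Mthfd2 exAM replicate 2 was the higher library, as in Chac1 (5.83 and 39.8 CPM) and Trib3 (14.7 and 39.5 CPM). Without exAM replicate 2 the list held 8 higher members, and Chac1 and Trib3 were not called (adjusted p = 0.958 and 0.181). Trib3 was also not called without HostAM replicate 2 (adjusted p = 0.0572), and Chac1 was not called without either HostAM library (adjusted p = 0.1 and 0.11), scaled by library size alone (0.0577) or in the fit of the 4 libraries (0.0535). The tRNA synthetases Eprs, Iars and Sars rose 1.76-fold, 1.65-fold and 1.73-fold. Of the 24 members of the list at or under 0.5 counts per base 7 rose and 2 fell, with a median of 0.18. Cebpg, a partner of ATF4, fell from 312 and 364 CPM to 166 and 202 CPM, and the leucine transporter Slc7a5 stood at 73.9 and 126 CPM against 177 and 148 CPM, a difference not called without exAM replicate 1 or HostAM replicate 1 (adjusted p = 0.101 and 0.0886).

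Of 21 genes of sterol efflux and of the nuclear receptor LXR, which drives it, 10 were lower in exAM and 6 higher, with a median of -0.89. Without HostAM replicate 1 the median was -0.10, and it was -0.55 with a minimum of 50 counts and -0.54 in the fit of the 4 libraries. Of the 12 members at or under 0.5 counts per base 1 rose and 9 fell, with a median of -1.42. Apoe, the lipid carrier, was at 0.343 and 0.309 CPM in exAM and 67.7 and 56.6 CPM in HostAM, 183-fold lower (log2 difference -7.51 ± 0.37, edgeR adjusted p = 3.21e-07). Its neighbour Apoc1 stood at 0 and 0.309 CPM against 41.4 and 23.7 CPM, the latter 202-fold the former with a 95% counting interval of 55.6 to 1670. The cholesterol exporter Abca1 fell from 370 and 300 CPM to 93.3 and 52 CPM. In these 3 genes the 2 groups lay far apart. The phospholipid transfer protein Pltp fell 5.85-fold, the desaturases Scd1 and Scd2 4.31-fold and 2.32-fold, and Nr1h2, which encodes LXR-beta, 2.42-fold. Abcg1, the other exporter, overlapped between the groups, at 815 and 661 CPM against 741 and 747 CPM. Among the 6 members that rose were Soat1, which esterifies cholesterol, by 1.99-fold, the hydroxylase Ch25h by 4.4-fold and the transporter Abcg2 by 12.4-fold. Cholesterol synthesis genes showed no common direction. Of 23 tested, 3 rose and 4 fell, and the median was 0.01. Without single libraries the number that rose was 1 (exAM replicate 2 or HostAM replicate 1) or 6 (HostAM replicate 2), and the number that fell was 2 without exAM replicate 2. Dhcr7, its last reductase in one branch, rose 3.77-fold from 109 and 120 CPM to 507 and 354 CPM, while the regulator Srebf2 fell 1.65-fold.

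Fatty acid genes moved both ways, with 13 of 41 higher and 13 lower in exAM (8 lower without exAM replicate 2, and 8 higher when scaled by library size alone). Of the genes of uptake and activation, the fatty acid translocase Cd36 rose from 229 and 271 CPM to 828 and 670 CPM, 3-fold, and the ligase Acsl4, which favours arachidonic acid, rose 6.94-fold. The elongase Elovl7 was at 110 and 171 CPM against 0.22 and 1.84 CPM and the desaturase Fads1 rose 3.83-fold. Among genes of storage, the triglyceride synthase Dgat2 was at 0.686 and 0.772 CPM against 95.1 and 66.2 CPM, 108-fold lower, and the droplet coats Plin4 and Plin5 were at 0 counts in exAM and at 4.08 and 3.22 CPM and 1.21 and 1.38 CPM in HostAM. Cidec, which enlarges lipid droplets, fell 55.9-fold, from 274 and 237 CPM to 4.97 and 4.17 CPM. Plin5 was not called without exAM replicate 1 or 2 (adjusted p = 0.0774 and 0.0824). Pdk4, which spares glucose while fat is burnt, fell from 29.4 and 39.5 CPM to 0.343 and 0 CPM, the reverse of Pdk1. The oxidation enzyme Acadm fell 1.65-fold.

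Genes of alveolar macrophage identity went in both directions. HostAM had been sorted on the products of Siglecf and Itgax, so these 2 genes are no finding. Of the 40 tested identity genes 17 were higher, 11 lower and 12 not called, with a median of 0.17 that became -0.01 when scaled by library size alone. Pparg, the lineage factor, was at 242 and 235 CPM against 227 and 193 CPM (edgeR adjusted p = 0.246). The repressor Bhlhe41 rose from 326 and 354 CPM to 499 and 550 CPM, the particle receptor Marco from 245 and 210 CPM to 520 and 471 CPM, and the ribonuclease Ear6, one of a family of near-identical copies whose counts are uncertain, 7.81-fold. Of the keratin and epithelial-type genes of this cell, Krt79 was at 2.23 and 1.24 CPM against 198 and 175 CPM, 108-fold lower, Krt19 2.58-fold lower, and the adhesion molecule Epcam had 0 counts in exAM and 98.4 and 105 CPM in HostAM, at least 417-fold lower. The fatty acid carrier Fabp1 fell from 91.6 and 94.3 CPM to 8.23 and 3.55 CPM and the chemokine receptor Cxcr1 from 44.9 and 44.4 CPM to 0.343 and 0.926 CPM, whereas Fabp4 rose 2.04-fold. Of these 40 genes 33 were over 0.5 counts per base, and the 7 others, 2 higher and 2 lower, had a median of -0.75.

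In the signalling pathways that hold this identity, members moved both ways. Among 30 genes of the GM-CSF, M-CSF and TGF-beta pathways 10 (33.3%) rose and 7 (23.3%) fell. Of all tested genes 20.9% rose and 23.3% fell. Csf1, which encodes M-CSF, was at 97.1 and 94.5 CPM in exAM against 3.97 and 6.68 CPM, 18-fold higher. Of the feedback genes of cytokine receptors, Cish rose from 60.5 and 49.6 CPM to 113 and 128 CPM and Socs3 2.13-fold, while Stat5a, which carries the GM-CSF signal, fell from 141 and 130 CPM to 32.1 and 33.7 CPM. Several members of the TGF-beta branch fell. The ligand Tgfb2 was at 0.343 and 0.463 CPM against 47.4 and 40.7 CPM, and the feedback inhibitor Pmepa1 at 4.63 and 2.16 CPM against 181 and 157 CPM. The signal transducer Smad3 fell from 5.29 and 12.1 CPM to 1.37 and 0.618 CPM, while the latency protein Ltbp3 rose from 4.19 and 1.5 CPM to 35.3 and 22.5 CPM and the activating integrin Itgav 2.68-fold.

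Regulators of self-renewal moved in opposite ways. Of 14 tested members 6 (42.9%) rose and 7 (50%) fell, where 20.9% and 23.3% of all tested genes did. Of the 11 at or under 0.5 counts per base 4 rose and 6 fell, with a median of -1.1, against -0.03 for the whole list. Genes of the Id proteins, inhibitors of differentiation factors, all rose: Id1 3.28-fold, Id2 from 44 and 59.4 CPM to 239 and 261 CPM and Id3 from 4.41 and 1.27 CPM to 65 and 60.8 CPM. Maf, which restrains macrophage renewal, stood at 1.03 and 2.62 CPM against 12.6 and 5.41 CPM. The call on Maf was lost without exAM replicate 1 (adjusted p = 0.0836) or HostAM replicate 1 (adjusted p = 0.073). Myc was at 276 and 257 CPM against 205 and 151 CPM, 1.5-fold higher, a call lost when scaled by library size alone and without exAM replicate 1 or HostAM replicate 2 (adjusted p = 0.0734, 0.0761 and 0.101). The factor Klf5 fell from 7.94 and 8.29 CPM to 0.172 and 0.772 CPM. Without exAM replicate 1 the list held 2 lower members, and without exAM replicate 2 it held 3.

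Cell cycle genes were more often lower than higher, 17 (33.3%) against 7 (13.7%) of 51, where 23.3% of all tested genes were lower and 20.9% higher. Their median was -0.26, or -0.11 without exAM replicate 2. Of the D cyclins, which open the cycle, Ccnd1 rose from 20.1 and 35.6 CPM to 567 and 360 CPM, 16.7-fold, and Ccnd2 from 551 and 546 CPM to 1080 and 932 CPM. The brake Cdkn1c rose as well, from 0 and 0.115 CPM to 23.8 and 18.1 CPM, while Cdkn1b fell 2.3-fold. Of the replication and mitosis genes, the licensing factor Cdc6 fell from 20.4 and 18.4 CPM to 7.72 and 4.01 CPM, the mitotic activator Cdc20 fell from 23 and 20.4 CPM to 6.86 and 2.93 CPM, and E2f2 and Cenpf by 3.61-fold and 3.02-fold. Without exAM replicate 2, 9 members were called lower, and without HostAM replicate 1, 10. Lymphocyte markers, from cells that can divide, were also lower in exAM in 10 of 15 members, and their part here was not tested.

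Matrix genes changed in most members. Of 29 tested members 16 were higher in exAM and 9 lower, with a median of 0.90 (0.45 without exAM replicate 1). The AP-1 element TGANTCA, known from collagenase promoters, is in capitals before the start of Mmp13, the protease with the largest rise in the list.
Mmp13 (chr9:7272364-7272513, + strand): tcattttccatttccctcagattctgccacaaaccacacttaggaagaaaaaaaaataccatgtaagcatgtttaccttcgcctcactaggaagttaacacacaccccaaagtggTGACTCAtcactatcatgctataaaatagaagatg
The element was found in 2 of 13 windows of members that rose (15.4%), in 12.5% of those of all tested members, and in 6.75% of all promoter windows of 250 bases. The elastase Mmp12 was at 666 and 568 CPM against 16.9 and 19.9 CPM, 33.6-fold higher, and the sheddase Adam8 rose 6.59-fold. Mmp2 had 0 counts in HostAM and stood at 9.26 and 12.4 CPM in exAM. The basement membrane collagens Col4a1 and Col4a2 rose from 0.22 and 0.576 CPM and 1.21 and 3.22 CPM to 29 and 19.6 CPM and 28.5 and 17.6 CPM. On the falling side stood the membrane-bound Mmp14, from 11 and 14.4 CPM to 0.172 and 0.154 CPM, the sheddase Adam19, from 28.1 and 62 CPM to 0.515 and 0.463 CPM, and the matricellular genes Thbs1, from 25.4 and 8.86 CPM to 1.37 and 1.08 CPM, and Tgfbi (2.3-fold), besides Fn1. Some of the stromal and endothelial markers, chosen here from those that rose, were counted beside these genes. In exAM Pdgfra stood at 19.6 and 41.5 CPM, Postn at 25 and 16.1 CPM and the endothelial cadherin Cdh5 at 28.6 and 17.8 CPM. In HostAM these markers stood at 0 to 1.15 CPM. Pdgfra and Cdh5 were not called by the DESeq2 Wald test (adjusted p = 0.314 and 0.071). Of the 10 tested endothelial and stromal markers 5 were higher (3 by the DESeq2 Wald test and 3 without exAM replicate 1, exAM replicate 2 or HostAM replicate 1) and 2 lower, and their summed level was 318 to 334 CPM in exAM and 390 to 403 CPM in HostAM. Pecam1, another of these markers, overlapped between the groups, at 1.2 and 0.309 CPM in exAM and 0.992 and 0.576 CPM in HostAM. The list holds 19 markers, and only the 10 tested ones passed the filter on low counts. The part of these markers in the rise of matrix genes was not tested.

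Adhesion and fusion genes changed with the matrix. Among integrins and their linkers 11 of 32 (34.4%) rose and 11 (34.4%) fell, where 20.9% and 23.3% of all tested genes did. Of the 18 at or under 0.5 counts per base 6 rose and 8 fell, with a median of -0.98, against -0.09 for the whole list. Itgam, the CD11b chain that alveolar macrophages carry little of, was at 1130 and 822 CPM in exAM against 48.9 and 48.9 CPM, 19.9-fold higher. The linker Vcl rose 12.5-fold, its partner Tln2 from 2.2 and 1.04 CPM to 156 and 166 CPM, the focal adhesion kinase Ptk2 from 0.22 and 7.02 CPM to 106 and 68.7 CPM, and Itgb3, partner of Itgav, from 9.48 and 7.25 CPM to 91.6 and 85.4 CPM. Of the leukocyte integrins, Itgad fell from 36.5 and 37.8 CPM to 0.343 and 1.08 CPM, Itgae from 17.4 and 37.3 CPM to 0.858 and 0.926 CPM, and Itgb7 33.3-fold. Of 18 genes known from osteoclasts and from cell fusion, 12 (66.7%) rose and 1 fell, with a median of 1.09. The fusion receptor Dcstamp was at 12.3 and 8.34 CPM against 0 and 0.115 CPM, and the RANK receptor Tnfrsf11a and its adaptor Traf6 rose 1.92-fold and 2.27-fold. The protease Ctsk and the secreted phosphoprotein Spp1 rose 2.03-fold and 2.2-fold, while Nfatc1, the master factor of osteoclasts, fell from 368 and 367 CPM to 161 and 159 CPM.

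Receptors for uptake went both ways, with 18 of 43 members (41.9%) higher and 18 (41.9%) lower in exAM. Of all tested genes 20.9% were higher and 23.3% lower. The scavenger receptor Msr1 was at 811 and 665 CPM against 32.8 and 37.3 CPM, 21-fold higher, and the collectin Colec12 at 412 and 225 CPM against 22.4 and 27.3 CPM. The bridge to dying cells, Mfge8, rose from 30.1 and 35.9 CPM to 586 and 509 CPM, and the lipid sensor Trem2 3.86-fold. C3ar1, the anaphylatoxin receptor, was at 790 and 745 CPM against 13.6 and 30.4 CPM, whereas C3 itself fell 1.8-fold. The C-type lectins split, with Clec5a and Clec7a up 3.27-fold and 1.7-fold and Clec4a3 and Clec4e down 8.69-fold and 4.38-fold. The Fc receptors split likewise, with the activating Fcgr3 up 1.66-fold and the inhibitory Fcgr2b down from 99.5 and 99.6 CPM to 9.09 and 22.7 CPM. Of the genes known from interstitial macrophages, C1qc was at 0.686 and 0.154 CPM against 18.3 and 26.1 CPM and Timd4 at 0.343 and 0.618 CPM against 5.4 and 19 CPM. Both belong to the list of monocyte and other macrophage markers described below. In that list 14 of 20 members were lower in exAM and 4, Lyve1 among them, were higher.

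Among 33 pattern recognition genes 9 (27.3%) rose and 11 (33.3%) fell, where 20.9% and 23.3% of all tested genes did. Tlr5, the flagellin receptor, was at 0.686 and 0 CPM in exAM and 98.4 and 101 CPM in HostAM, 293-fold lower, or 141-fold without exAM replicate 2 (log2 difference -8.19 ± 0.39, edgeR adjusted p = 2.87e-07). All 4 of its exAM counts were in replicate 1. Tlr9 fell 14.3-fold and Tlr2 2.05-fold, while the endosomal RNA sensors Tlr7 and Tlr13 rose 2.13-fold and 3.02-fold and the lipopolysaccharide receptor Tlr4 1.56-fold. The cytosolic sensors Nlrp3, Ddx58 and Ifih1 fell 2.32-fold, 1.97-fold and 1.87-fold, and the adaptor Myd88 1.55-fold.

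Mediators of inflammation fell more often than they rose, 21 against 13 of 42, with a median of -1.22. Of the 31 at or under 0.5 counts per base 6 rose and 17 fell, with a median of -2.03. The CC chemokines went opposite ways. Ccl2 was at 136 and 101 CPM in exAM against 1.54 and 4.72 CPM, Ccl9 at 706 and 572 CPM against 54.7 and 57.1 CPM and Ccl3 at 221 and 209 CPM against 29.1 and 26 CPM, all 3 higher. Ccl22 and Ccl17, which attract CCR4-bearing T cells, fell 6.6-fold and 3.04-fold, and the interferon-induced Cxcl9 and Cxcl10 fell to 0 and 0 CPM and 0.343 and 0.154 CPM from 9.48 and 15.5 CPM and 11.5 and 24.3 CPM. Igf1, the growth factor, rose from 88.2 and 118 CPM to 921 and 885 CPM, 8.78-fold. Of the interleukin-1 family Il1a rose 7.01-fold and the antagonist Il1rn 2.09-fold, whereas Il18 fell 2-fold. Il1b stood at 18.4 and 26.1 CPM against 33.6 and 40.9 CPM, a difference not called in the fit of the 4 libraries or without exAM replicate 1 or HostAM replicate 2 (adjusted p = 0.0506, 0.246 and 0.152). Tnf fell from 86 and 67.5 CPM to 25 and 34.3 CPM and the cytokine Osm 39-fold. Ccr7, which guides cells to lymph nodes, had 0 counts in exAM and 45.4 and 69.8 CPM in HostAM.

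Of 37 genes of the immediate early response and of NF-kB, 20 fell and 5 rose, with a median of -0.77. The nuclear receptors Nr4a1 and Nr4a3 were at 0.343 and 1.24 CPM and 0 and 0.463 CPM in exAM against 20.9 and 22.1 CPM and 64.1 and 84 CPM in HostAM. The AP-1 gene Fosb fell from 18.6 and 39.7 CPM to 0.515 and 0.772 CPM, Junb 2.53-fold, the antiproliferative gene Btg2 5.25-fold and the NF-kB subunit Nfkb1 2.07-fold. Jun and Atf3 rose, Jun from 89 and 84.6 CPM to 144 and 190 CPM and Atf3 from 64 and 68 CPM to 265 and 252 CPM. In tAM, sorted in the same way as HostAM, Fosb stood at 11.8 and 28.7 CPM and Nr4a1 at 18.1 and 12.7 CPM, and 19 members were lower and 5 higher in exAM than in tAM. The heat shock genes Hspa1a and Hspa1b, near-identical copies whose counts are uncertain, were at 0.858 and 0.772 CPM and 0.172 and 0.463 CPM in exAM and 33.9 and 39.3 CPM and 20.7 and 17.6 CPM in HostAM. In tAM they stood at 3.48 and 7.65 CPM and 2.09 and 2.01 CPM. The lung libraries were sorted and the cultures were not, and the part of sorting in these differences was not tested.

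Among 47 interferon-stimulated genes 15 (31.9%) fell and 5 rose, where 23.3% of all tested genes fell, and their median was -0.49 (-0.09 without HostAM replicate 2). Without exAM replicate 2 the number that fell was 9, and the number that rose was 2 without exAM replicate 1 and 3 without HostAM replicate 1. The factors Irf1 and Irf5 fell 4.22-fold and 3.15-fold, and Stat2 1.63-fold. Ifitm3, which blocks virus entry, was at 0.172 and 0.309 CPM against 14 and 8.52 CPM. Classical members such as Isg15 (5.15 and 4.94 CPM against 9.81 and 6.45 CPM) and Oas1a (12.3 and 8.34 CPM against 16.6 and 21.4 CPM) were not called. Slfn5 rose from 8.05 and 13.1 CPM to 126 and 124 CPM, 11.8-fold, and Ifit2 from 3.09 and 6.91 CPM to 27.1 and 21.5 CPM.

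Several genes of arginine metabolism rose. The arginase Arg1, which makes ornithine, was at 76.7 and 31.3 CPM in exAM and 2.54 and 4.72 CPM in HostAM, and Ass1, which rebuilds arginine, at 130 and 104 CPM against 3.86 and 6.79 CPM, 21.9-fold higher. Odc1, which turns ornithine into polyamine, rose from 42.8 and 33.4 CPM to 143 and 119 CPM, its antizyme inhibitor Azin1 3.13-fold and the arginine transporter Slc7a2 2.11-fold. These genes serve uptake, synthesis and use of arginine. In the eicosanoid branch the cyclooxygenase Ptgs1 rose from 37.7 and 31.4 CPM to 271 and 267 CPM, 7.79-fold, while the leukotriene enzymes Alox5 and Ltc4s fell 1.4-fold and 3.72-fold. Of 27 members of both branches 9 (33.3%) rose and 4 (14.8%) fell, where 20.9% and 23.3% of all tested genes did.

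Of 22 iron handling genes 9 (40.9%) rose and 3 (13.6%) fell, with a median of 0.36, where 20.9% and 23.3% of all tested genes did. The transferrin receptor Tfrc was at 82.1 and 51.3 CPM against 10.6 and 14 CPM, 5.41-fold higher, and the endosomal reductase Steap3 and the transporters Slc11a1 and Slc11a2 rose 3.03-fold, 2.75-fold and 2.2-fold. In tAM Slc11a1 stood at 21.1 and 11.9 CPM. The iron genes named here all rose, and with a 2-fold minimum 6 of the list rose and 3 fell. Of 34 antioxidant genes 11 (32.4%) rose and 3 (8.82%) fell. Scaled by library size alone, 5 rose and 7 fell. The number that rose was 5 without exAM replicate 1 and 7 without HostAM replicate 1, the number that fell was 1 without exAM replicate 2 or HostAM replicate 2, and no riser reached 2-fold. Among those that rose were the peroxiredoxins Prdx1, Prdx2 and Prdx6, by 1.59-fold, 1.77-fold and 1.87-fold. With a 2-fold minimum none rose and 2 fell.

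Of 32 enzymes of chromatin and DNA methylation, 14 were lower and 1 was higher, with a median of -0.46 (-0.29 without exAM replicate 1). The histone demethylase Kdm6b fell from 192 and 157 CPM to 48 and 53.6 CPM, the deacetylase Hdac5 3.2-fold and the methyltransferases Kmt2a and Kmt2d 1.53-fold and 1.63-fold. The member that rose was the DNA methyltransferase Dnmt3a, from 447 and 418 CPM to 749 and 812 CPM. Without HostAM replicate 1, 9 members were lower.

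Of 30 tested clock and glucocorticoid genes 9 (30%) rose and 8 (26.7%) fell, where 20.9% and 23.3% of all tested genes did. The glucocorticoid target Tsc22d3 (GILZ) was at 27.8 and 30.9 CPM against 148 and 128 CPM, 4.7-fold lower, and Per1 and Fkbp5 fell 2.94-fold and 1.87-fold. Ddit4, another target, rose from 0.22 and 1.73 CPM to 7.55 and 14.7 CPM. Of 16 genes of coagulation and fibrinolysis 4 rose and 5 fell (2 and 3 without exAM replicate 1). The plasminogen activator Plau rose from 28.8 and 24.7 CPM to 230 and 142 CPM and tissue factor F3 rose 5.5-fold. With a 2-fold minimum 3 of these coagulation genes rose and 3 fell.

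Transcripts of other cells differed between cultured and sorted libraries. Of 22 lung epithelium markers 18 were lower in exAM and 2 higher, their summed level being 644 to 693 CPM in exAM and 1090 to 1130 CPM in HostAM, and 13 and 15 members had 0 counts in exAM replicates 1 and 2. The surfactant protein Sftpc, which defines type 2 cells, had 0 counts in exAM and 13.2 and 14.3 CPM in HostAM. The markers that rose were the cadherin Cdh1 and the protease Napsa, the latter not called without exAM replicate 1 (adjusted p = 0.0663). Abca3, a lipid transporter, overlapped between the groups, at 167 and 179 CPM in exAM and 182 and 145 CPM in HostAM. Of 15 lymphocyte markers 10 were lower (6 without exAM replicate 1) and 1 was higher, and their summed level was 372 to 417 CPM in exAM and 265 to 398 CPM in HostAM. The T cell gene Cd3e had 0 counts in exAM and 12.9 and 28.2 CPM in HostAM, and Nkg7 and Cd8a differed between the HostAM pools, at 0.22 and 12.9 CPM and 1.54 and 17.2 CPM. The call on Nkg7 was lost without exAM replicate 1, exAM replicate 2 or HostAM replicate 2 (adjusted p = 0.0671, 0.0721 and 0.251). The exception was Il7r, at 382 and 306 CPM in exAM against 9.59 and 33.2 CPM. Il7r made up most of the summed level of the lymphocyte markers in exAM. Among 9 markers of red cells and platelets, 7 were lower and none higher, and the haemoglobin genes Hbb-bt and Hbb-b1 had 0 counts in exAM. With members at 0 counts set to their bound, the medians were -4.52 for epithelium, -3.73 for lymphocytes and -5.52 for red cells.

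Markers of monocytes and other macrophages, which an unsorted culture could hold, were lower in exAM in 14 of 20 members and higher in 4, with a median of -2.71 when members at 0 counts are set to their bound. Among those that rose were Itgam, Adgre1, which encodes F4/80, from 263 and 284 CPM to 476 and 386 CPM, and Lyve1, at 15.8 and 18.4 CPM against 0.551 and 0 CPM. The monocyte receptor Ccr2 was at 4.8 and 3.09 CPM against 15.4 and 38.8 CPM, and C1qa and Cd163 had 0 counts in exAM. The call on Cd163 was lost without exAM replicate 1, exAM replicate 2 or HostAM replicate 1 (adjusted p = 0.102, 0.108 and 0.119). The summed level of the list was 1450 to 1830 CPM in exAM and 451 to 538 CPM in HostAM, with Itgam at 1130 and 822 CPM of it in exAM. Of the Y-linked genes, Ddx3y was at 9.43 and 9.11 CPM in exAM against 0 counts in HostAM. Calls on the other Y-linked genes were lost without single libraries. That on Eif2s3y was lost without either HostAM library and that on Kdm5d without either exAM library. The call on Uty was lost without any 1 of the 4 libraries. The X-inactivation RNA Xist was at 801 and 1060 CPM in exAM against 1330 and 1710 CPM. Y-linked and X-inactivation transcripts were thus both counted in each exAM pool, and the sex of the animals cannot be told apart from culture.

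**Figure D5:**
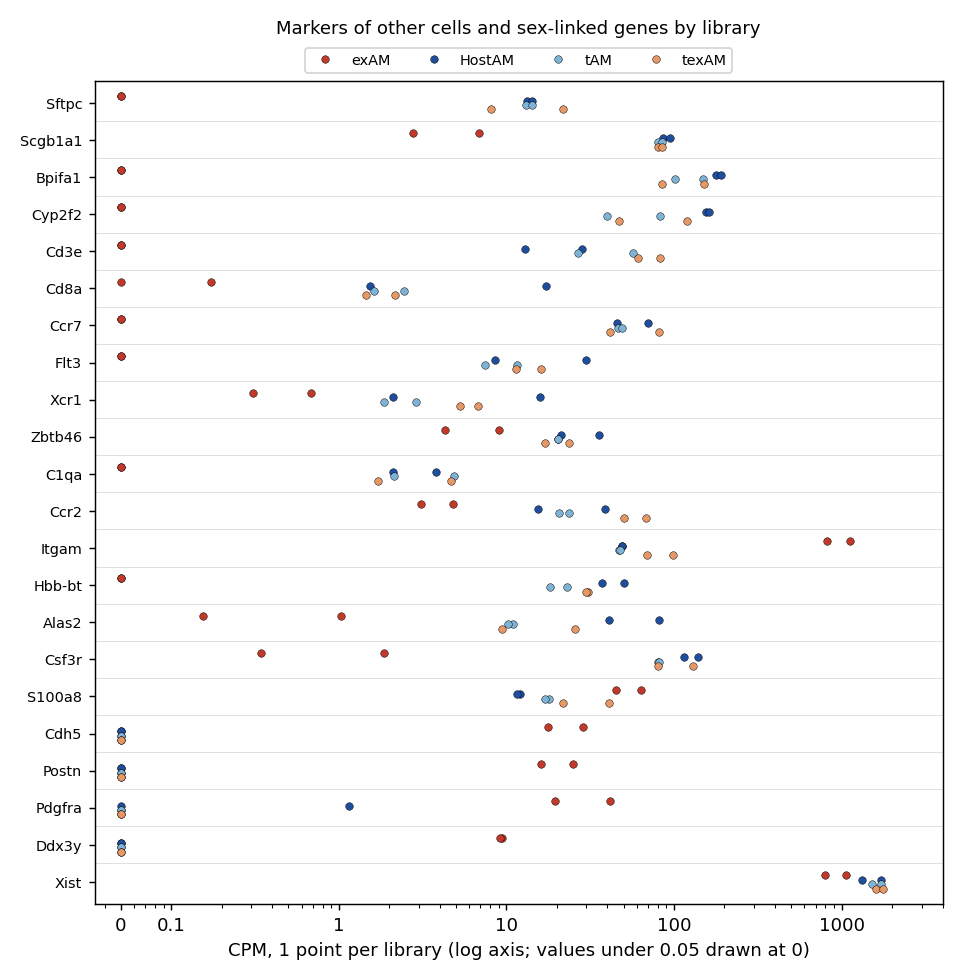
Level of 22 markers of other cells and of sex (rows), in CPM on a log axis (horizontal) with values under 0.05 drawn at 0, with 1 point per library of exAM, HostAM, tAM and texAM. The exAM points of Sftpc, Cyp2f2, Cd3e and Flt3 lie at 0, and those of Itgam and Ddx3y lie right of HostAM.

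Strain and CD45 allele differ without culture between tAM and HostAM, though tAM had also been transferred. Only 6 genes (0.0413% of those tested) were called there, chosen for naming after their values were seen: Cd163l1, Ctse, Mfsd6, Ppfia4, Slc22a4 and Wdfy1. Ctse (chromosome 1, 131638306 to 131675505) was at 0.929 and 1.5 CPM in tAM and 46.6 and 49.5 CPM in HostAM, and Ppfia4 at 16 and 14.3 CPM against 0.11 and 0 CPM. Both lie within 20 Mb of Ptprc on chromosome 1, where 2 of 169 tested genes (1.18%) were called. In the same window 80 genes (47.3%) were called between exAM and HostAM, near the 44.1% of all tested genes. Ctse had 0 counts in exAM, which like tAM were of the C57BL/6 strain, and Ppfia4 overlapped between exAM and HostAM. These calls between tAM and HostAM were not recomputed with a library left out. Wdfy1 was at 147 and 164 CPM in exAM, 65.6 and 78.3 CPM in HostAM and 24.3 and 20.8 CPM in tAM. Ptprc, which encodes CD45 (chromosome 1, 138062861 to 138175708), fell from 661 and 794 CPM in HostAM to 501 and 465 CPM in exAM (log2 difference -0.59 ± 0.1, edgeR adjusted p = 0.000845) and stood at 783 and 717 CPM in tAM.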

How the data were processed

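RNA of pooled cells was amplified from total RNA with single-primer isothermal primers (Ovation RNA-seq V2 and Ultralow kits), per the labels' protocols. These kits do not mark the strand, so overlapping and antisense genes cannot be told apart. The deposited values were raw counts of reads per gene made by the authors, whole numbers for 37310 Ensembl IDs, and 22497 of these were above 0 in at least 1 library. The submitters' processing notes name Bowtie, HTSeq 0.6.1, R 3.3 and the builds mm10 and GRCm38, and their parameters are not given in the sources used here. Columns were matched to samples by name, and the abbreviated texAM columns by the words of their labels. Positions and transcript lengths came from GENCODE M21 on GRCm38, which held 32620 of the IDs (87.4%), and promoter sequences came from RefSeq.

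Genes were filtered by filterByExpr with a minimum of 10 counts and scaled by TMM, and edgeR 4.0.16 with limma 3.58.1 in R 4.3.3 fitted a robust quasi-likelihood model to all 8 libraries, 1 coefficient per group and 4 residual degrees of freedom (biological coefficient of variation 0.22). The quasi-likelihood F test was adjusted by Benjamini-Hochberg over 14537 genes. Counts of all 8 libraries were simulated from the mean HostAM levels and the fitted spread (3 simulations, at least 13549 genes tested). In the simulated exAM, genes above a minimum HostAM level were raised or lowered. Of these, 63.7% of 201 changed 2-fold, 90.5% of 201 changed 4-fold and 97% of 198 changed 8-fold were recovered. Of all calls, 4.4% were false. Far fewer genes were changed there than the 6417 called in the real comparison. Recovery and false calls at that scale were not tested. Folds against 0 counts use 3 counts over the group, and those against 1 to 3 counts carry exact 95% binomial intervals.

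Members, 28 programme lists and 8 marker lists were chosen with earlier results of these data known, so lists are described by counts and medians and carry no test. Named genes were the 15 largest called changes per direction with at least 10 CPM in the higher group, the 10 largest with at least 200 CPM, in each programme list the 4 largest per direction and members whose role defines it, members of the identity, self-renewal and marker lists, and Ptprc. The first 2 sets needed libraries that did not overlap and no predicted or clone name. A further 79 genes outside this rule were chosen after their values were seen: Acadm, Adam8, Atp6v1a, Azin1, C3, Ccl17, Ccl22, Ccl3, Cd163l1, Cd80, Cd86, Cdkn1b, Cish, Clec4a3, Clec4e, Clec5a, Clec7a, Col4a1, Col4a2, Ctsb, Ctsl, Cxcl10, Ddx58, Egln1, Eprs, Fcgr2b, Fcgr3, Fkbp5, H2-DMa, H2-DMb2, H2-Oa, Iars, Icosl, Ifih1, Igf1, Il1a, Il1b, Il1rn, Irf1, Irf5, Isg15, Junb, Kmt2a, Kmt2d, Lamp2, Ldha, Mfsd6, Mmp12, Mthfd2, Myd88, Nfkb1, Oas1a, Osm, P4ha1, Pdcd1lg2, Pdk1, Per1, Pgam1, Pgk1, Ppfia4, Prdx1, Psmb8, Sars, Scd1, Scd2, Sdhd, Slc11a2, Slc22a4, Smad3, Socs3, Stat2, Tgfbi, Thbs1, Tlr4, Tnf, Traf6, Trem2, Vcl and Wdfy1. Genes covered by the rule are reported in part, those of the lists as examples. Alternatives were scaling by library size alone or by the size factors of DESeq2 1.42.0, its Wald test, no filter, a 50 count minimum, the 4 libraries alone, a replicate block, leaving out each library, a 2-fold minimum, and leaving out genes over 0.5 counts per base.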

Additional observations from a re-analysis of the deposited data

How the results depend on the processing

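Against 3034 genes higher and 3383 lower, a 2-fold minimum left 1357 and 2383. All other settings stayed within 1.5 times of both counts: no filter gave 3142 and 3868, a minimum of 50 counts 2799 and 3042, DESeq2 size factors 3131 and 3319, library size alone 2275 and 4189, the DESeq2 Wald test 3136 and 3316, the 4 libraries alone 2721 and 3000, and leaving out genes over 0.5 counts per base 2361 and 2775. Leaving out 1 library gave 2316 to 2782 genes higher and 2275 to 3051 lower, and the lone library of a group was then assumed to vary like the other groups. Replicate numbers were shared by the groups only as numbers (r = 0.01 between the deviations of same-numbered exAM and HostAM libraries), and with the replicate block 2848 genes were higher and 3139 lower, and the calls on Chac1 (adjusted p = 0.0674), Il1b (0.0524), Eif2s3y (0.0619) and Uty (0.0619) were not made. The DESeq2 Wald test did not call Eif2s3y (adjusted p = 0.109) or Uty (0.0645) either. Of 464 named genes none reversed under any setting, and most kept their call: 450 with library size alone, 450 with the DESeq2 Wald test, 456 with the replicate block and 406 of 463 without exAM replicate 1. Scaled by library size alone, the balance of higher against lower members moved by over 10 percentage points in these lists: cholesterol synthesis (1 higher and 6 lower), fatty acids (8 and 14), antioxidants (5 and 7), lysosome (25 and 5), amino acid response (10 and 5), GM-CSF, M-CSF and TGF-beta (9 and 10), clock and glucocorticoid (6 and 8) and chaperones (5 and 7). Differences were not detectable where a gene had few counts in every library, and 2 pools a group limit the precision of every value.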

Other observations

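Chaperones, which fold proteins, moved both ways. Of 24 tested members 10 were higher in exAM and 7 lower, with a median log2 difference of 0.31, and the number higher was 5 when scaled by library size alone, in the fit of the 4 libraries, or without exAM replicate 1 or HostAM replicate 1. The mitochondrial chaperones Hspa9 and Hspd1 rose, Hspa9 from 144 and 149 CPM to 309 and 385 CPM and Hspd1 from 119 and 120 CPM to 190 and 170 CPM, 2.36-fold and 1.51-fold. Hsp90aa1, a stress-induced chaperone of the cytosol, rose 1.58-fold, while Hsf1, the master factor of the heat shock response, fell from 121 and 80 CPM to 40.3 and 38 CPM. The small heat shock protein Cryab had 0 counts in exAM and 10 and 9.67 CPM in HostAM, and stood at 1.16 and 2.38 CPM in tAM. Cryab was not called between tAM and HostAM. It fell in exAM as did Hspa1a and Hspa1b.

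Of 5 tested markers of neutrophils, eosinophils and mast cells 3 were higher in exAM and 2 lower. S100a8 and S100a9 encode the chains of one dimer and are abundant in neutrophils, yet S100a8 was at 63.6 and 44.8 CPM in exAM against 12.1 and 11.5 CPM in HostAM and S100a9 at 0.343 and 0 CPM against 5.29 and 14.2 CPM. S100a8 was thus higher in both exAM libraries and S100a9 lower in both. Csf3r, the receptor for G-CSF, fell from 139 and 114 CPM to 0.343 and 1.85 CPM.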
